A study of Bos taurus with 18 samples.

Results

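The 5 genes described here, CXCL2, CXCL3, GRO1, CXCL5 and CXCL8, encode CXC chemokines that attract neutrophils, and they were read out of a table of 36075 bovine genes in all 18 libraries of the study. They were picked by name as one chemokine family. Their identifiers were ENSBTAG00000027513 (CXCL2), ENSBTAG00000037778 (CXCL3), ENSBTAG00000037558 (GRO1), ENSBTAG00000009812 (CXCL5) and ENSBTAG00000019716 (CXCL8). All 5 passed the filter on low counts, which kept 17931 genes. The identifiers came from the study's own list of genes that changed with rbCAPG in bESCs, so a rise of these genes in that comparison is not independent evidence. The same holds for rbPDI in bESCs, which was compared with the same VC libraries. The genes were also chosen with earlier results of these data known.

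Chemokines of this family are small secreted proteins that bind CXCR1 and CXCR2 on neutrophils and draw the cells from blood into tissue along a gradient. Their genes are among the classic targets of NF-kB, a transcription factor held in the cytoplasm by inhibitors until bacterial products or cytokines such as interleukin 1 release it. In the uterus they are known as an early epithelial and stromal response to infection and tissue damage. CXCL8, also called interleukin 8, acts through both receptors. GRO1 (whose other name is CXCL1), CXCL2 and CXCL3 form the closely related GRO group, and CXCL5, listed in cattle also under the name CXCL6, is a granulocyte chemotactic protein. In the order of genes in the RefSeq annotation the 5 lie in 1 cluster of 10 genes with PPBP and PF4, 2 further chemokine genes, among them.

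Primary bovine endometrial epithelial cells (bEECs) and stromal cells (bESCs) from the late luteal uterine tracts of 3 animals were grown on opposite faces of a porous membrane in an endometrium-on-a-chip device. Medium flowed past the bEECs only, for 24 h, and carried vehicle (VC, PBS), recombinant bovine CAPG (rbCAPG, an actin-capping protein released by the conceptus) or recombinant bovine PDI (rbPDI, a protein disulfide isomerase), each protein at 1000 ng/mL. Each of the 9 devices held both cell types of 1 animal, and replicates 1 to 3 of each of the 6 groups are those animals. Fewer bESCs than bEECs were seeded, the bESCs at a later passage, and libraries were made with an ultra-low-input kit.

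Total counts ran from 10072851 (bESC rbPDI replicate 1) to 44253149 per library. MUC1 and OCLN, the 2 of 8 epithelial markers with an identifier, stood in bESCs at 0.0280% to 2.85% of their level in the bEECs of the same device. The 5 of 12 stromal markers with an identifier (COL6A1, HAND2, NID1, ZEB1, EMILIN1) stood in bEECs at 0.493% to 17.0% of their bESC level with VC, at 2.31% to 33.2% with rbCAPG and at 2.04% to 25.4% with rbPDI. Levels below are CPM, the reads of a gene scaled to a common library size, after TMM normalisation. A gene was called where edgeR's quasi-likelihood test gave a p-value under 0.05 after Benjamini-Hochberg adjustment over all tested genes and the log2 fold change exceeded 1 in size. In such bulk libraries fewer expressing cells and less RNA per cell cannot be told apart.

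Without added protein, the 3 GRO genes were near silent in bEECs and active in bESCs. CXCL2 stood at 0.635, 1.09 and 0.598 CPM in the bEECs of replicates 1 to 3 and at 62.4, 39.0 and 18.5 CPM in the bESCs. CXCL3 stood at 0.906, 2.24 and 2.09 CPM in bEECs and at 52.9, 44.0 and 15.2 CPM in bESCs. GRO1 stood at 1.03, 3.59 and 1.496 CPM in bEECs and at 38.5, 39.9 and 12.2 CPM in bESCs. For these 3 GRO genes every bESC library was above every bEEC library, as for CXCL5 and 28.3% of tested genes, and in bESCs replicate 3 was the lowest each time. The bEEC values rested on few reads, between 20 and 112 per library (20, 21 and 33.5 for CXCL2).

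CXCL5 differed most between the untreated cell types. It stood at 15.4, 18.3 and 25.1 CPM in bEECs and at 3665, 8609 and 1946 CPM in bESCs, so that the bEEC level was 0.212% to 1.29% of the bESC level in the same device. The stromal markers' own ratio in those bEEC libraries, 0.493% to 17.0%, overlapped the one of CXCL5. It held those of CXCL2 (1.02% to 3.24%), CXCL3 (1.71% to 13.8%) and GRO1 (2.67% to 12.3%) and overlapped that of CXCL8 (6.02% to 124%). The part of bESC RNA in the bEEC baseline was not tested. CXCL8 was the exception of the family. It reached 116 CPM in bEEC replicate 1 against 6.85 and 4.34 CPM in replicates 2 and 3, while bESCs held 93.9, 114 and 38.5 CPM, so the groups overlapped.

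Compared between cell types with VC, 4 of the 5 genes were called lower in bEECs, where 18.9% of all tested genes were called in that direction. The log2 differences (bEEC minus bESC) were -5.69 ± 0.70 (SE) for CXCL2 (adjusted p = 6.32e-06), -4.42 ± 0.56 for CXCL3 (adjusted p = 7.88e-06), -3.89 ± 0.57 for GRO1 (adjusted p = 3.50e-05) and -7.92 ± 0.73 for CXCL5 (adjusted p = 2.55e-07). CXCL8 was not called (-0.95, 95% interval -3.02 to 1.12, adjusted p = 0.441), which does not show that the cell types were alike. Without bEEC VC replicate 1 the CXCL8 difference was -3.87 (adjusted p = 0.00295), a call.

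**Figure D1:**
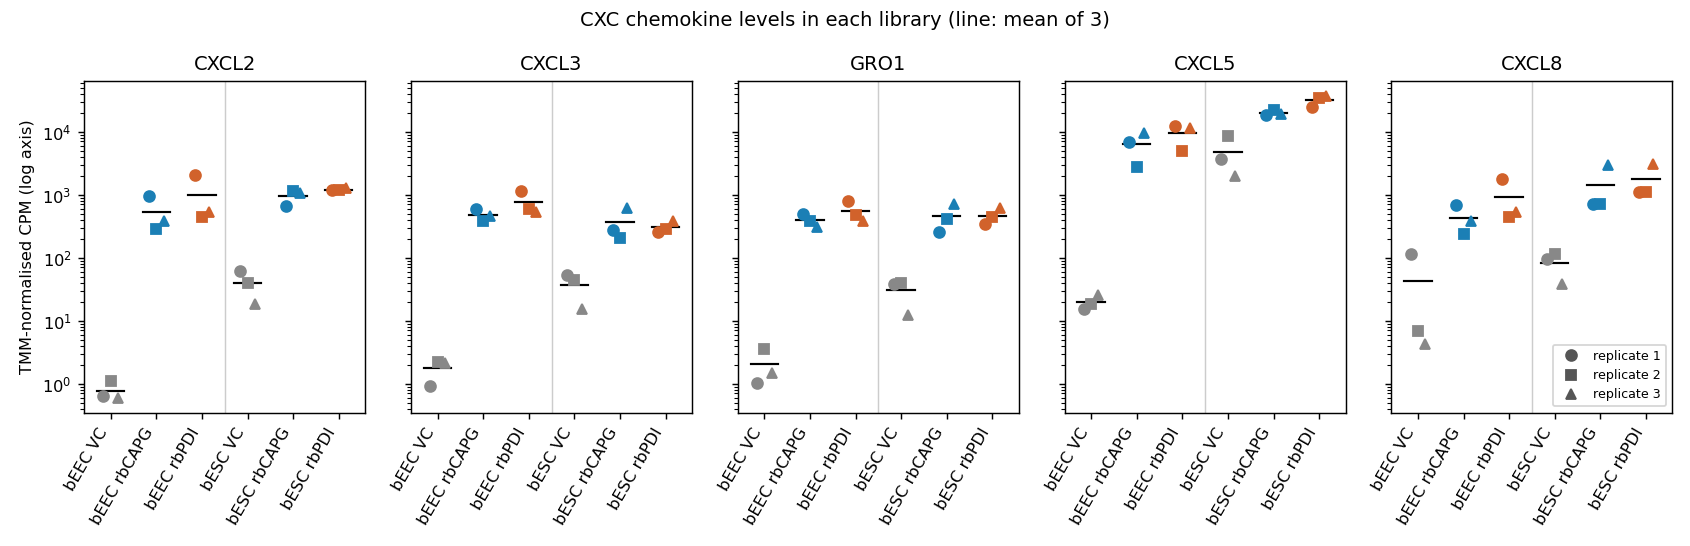
TMM-normalised CPM (log axis) of each of the 5 chemokine genes in the 18 libraries, by cell type and treatment (grey VC, blue rbCAPG, orange rbPDI), with a symbol for each replicate and a line at the mean of 3. With VC the bEEC points of CXCL2, CXCL3 and GRO1 lie between 0.598 and 3.59 CPM, bEEC VC replicate 1 stands apart for CXCL8 at 116 CPM, and all points with either protein lie above those with VC in the same cell type.

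With either protein all 5 genes stood higher in bEECs, the cells that faced the flow, and 4 of the 5 were called. With rbCAPG, CXCL2 stood at 940.2, 284 and 387 CPM, and with rbPDI at 2024, 445 and 528 CPM. CXCL3 stood at 589, 376 and 459.8 CPM with rbCAPG and at 1162, 581 and 536 CPM with rbPDI. Replicate 1 was the highest of the 3 for both genes with both proteins, and no treated library came near a VC library.

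GRO1 stood at 498, 379 and 306 CPM with rbCAPG and at 805, 483 and 388 CPM with rbPDI. CXCL5 stood at 6748, 2704 and 9398 CPM with rbCAPG and at 12152, 4872 and 11274 CPM with rbPDI. CXCL8 stood at 678, 234 and 387 CPM with rbCAPG and at 1779, 434 and 536 CPM with rbPDI. Replicate 1 was again highest for GRO1 and CXCL8, whereas for CXCL5 replicate 2 was the lowest with both proteins.

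In bEECs all 5 genes were higher in every treated library than in every VC library, which held for 8.72% of tested genes with rbCAPG and for 8.06% with rbPDI. CXCL2, CXCL3, GRO1 and CXCL5 were called higher with each protein, while 0.513% of tested genes were called higher with rbCAPG and 0.77% with rbPDI. Both comparisons used the same VC libraries. The genes were chosen with earlier results of these data known, so these counts are not independent evidence. The log2 fold changes of GRO1 were 7.60 ± 0.67 (SE, adjusted p = 9.24e-06) with rbCAPG and 8.10 ± 0.68 (adjusted p = 4.73e-06) with rbPDI, and those of CXCL5 were 8.32 ± 0.74 (adjusted p = 9.24e-06) and 8.91 ± 0.76 (adjusted p = 4.84e-06). With rbPDI the log2 fold changes of CXCL2 and CXCL3 were 10.33 ± 0.84 and 8.76 ± 0.67 (adjusted p = 3.93e-06 for both). The calls of these 4 genes were made with each protein under all alternative settings and omissions of libraries tried. Across the 5 genes the median log2 fold change was 8.08 with rbCAPG and 8.76 with rbPDI, against 0.02 and -0.01 over all tested genes.

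CXCL8 was not called in bEECs, although its treated libraries were all above the VC libraries. Its log2 fold change was 3.35 (95% interval 1.11 to 5.60, adjusted p = 0.277) with rbCAPG and 4.43 (2.07 to 6.79, adjusted p = 0.0840) with rbPDI. Within the same animal it was 5.84-fold, 34.1-fold and 89.2-fold higher with rbCAPG in replicates 1, 2 and 3, and 15.3-fold, 63.3-fold and 124-fold higher with rbPDI. The VC library of replicate 1 held the most CXCL8 and gave the smallest fold. Without that library the log2 fold changes were 6.28 (adjusted p = 0.00910) and 7.36 (adjusted p = 0.00281), both called. With the replicate number as a block, CXCL8 was called with rbCAPG (4.55, adjusted p = 0.00725) and with rbPDI (5.35, adjusted p = 0.00176), the second also by DESeq2 (adjusted p = 0.00158) and with no filter on low counts (adjusted p = 0.0147).

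Those markers of other cell types that could be read moved in the same bEEC libraries. They had identifiers only through the study's lists of genes that changed with rbCAPG, so their movement is not independent evidence. Listed markers without an identifier could not be read. The summed level of the 5 stromal markers was 5.65 to 12.9 CPM with VC, 15.7 to 36.4 CPM with rbCAPG and 10.4 to 25.1 CPM with rbPDI, with 0 of 5 called for either protein. Of 7 leukocyte markers 2 had an identifier, CD14 (a co-receptor for bacterial lipopolysaccharide) and AIF1, and their sum was 12.7 to 21.0 CPM with VC, 44.7 to 58.4 CPM with rbCAPG and 53.0 to 71.5 CPM with rbPDI, with CD14 called higher with rbPDI. Of 5 endothelial markers 2 had an identifier, SELP and TEK, and their sum was 1.53 to 3.75 CPM with VC, 11.9 to 15.9 CPM with rbCAPG and 5.07 to 37.4 CPM with rbPDI, with TEK called higher with rbPDI. That sum was nearly all SELP, since TEK stood at 0.0302 to 0.128 CPM with VC and at 0.554 to 0.888 CPM with rbPDI. The part of these cells in the chemokine changes was not tested. With rbPDI the bEEC level was, as a share of the bESC level in the same device, 143% to 447% for CXCL3, 62.9% to 236% for GRO1, 38.0% to 172% for CXCL2, 17.8% to 159% for CXCL8 and 14.4% to 48.9% for CXCL5. The range of the stromal markers there, 2.04% to 25.4%, overlapped those of CXCL8 and CXCL5.

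**Figure D2:**
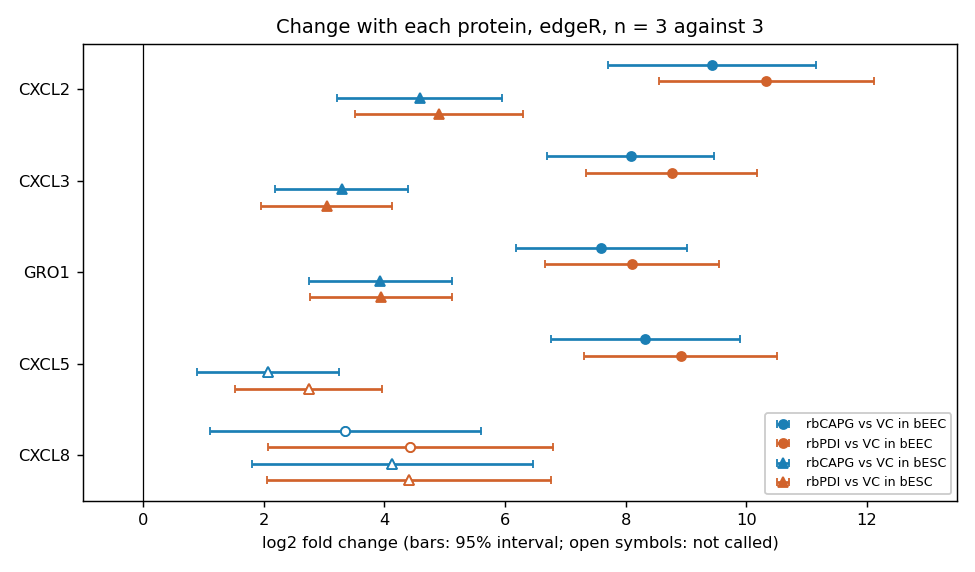
Log2 fold change against VC (x axis) of each chemokine gene with its 95% interval, for rbCAPG (blue) and rbPDI (orange) in bEECs (circles) and bESCs (triangles), by edgeR with 3 libraries against 3, where filled symbols were called and open ones were not. For CXCL2, CXCL3, GRO1 and CXCL5 the bEEC intervals lie to the right of the bESC intervals, whereas the 4 intervals of CXCL8 overlap, with centres from 3.35 to 4.43.

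bESCs, which lay on the static side of the membrane, also held more of all 5 transcripts after exposure. CXCL2 stood at 672, 1137 and 1067 CPM with rbCAPG and at 1175, 1173 and 1263 CPM with rbPDI. CXCL3 stood at 279, 207 and 615 CPM with rbCAPG and at 259.7, 289 and 375 CPM with rbPDI. GRO1 stood at 259, 408 and 714 CPM with rbCAPG and at 341, 437 and 617 CPM with rbPDI. In replicate 3, whose VC library held the least of all 5 genes, CXCL3 and GRO1 reached their highest level with both proteins.

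CXCL5 stood at 18532, 21864 and 19389 CPM with rbCAPG, and with rbPDI at 24838.5, 33920.5 and 36659 CPM. CXCL8 stood at 707, 717 and 2906 CPM with rbCAPG and at 1119.7, 1089 and 3012 CPM with rbPDI. Replicate 3 was far above the other two for CXCL8, with both proteins. For all 5 genes each treated library was above each VC library, which held for 3.02% of tested genes with rbCAPG and for 4.1% with rbPDI.

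The 3 GRO genes were called higher in bESCs with each protein, and CXCL5 and CXCL8 were not, while 0.0948% of tested genes were called higher with rbCAPG and 0.173% with rbPDI. For rbCAPG this count is not independent evidence, since the identifiers came from the study's calls in the same comparison. Nor is it for rbPDI, which was compared with the same VC libraries. CXCL3 had a log2 fold change of 3.30 ± 0.52 (SE, adjusted p = 0.0177) with rbCAPG and 3.04 ± 0.51 (adjusted p = 0.0164) with rbPDI. With rbPDI, CXCL2 had 4.91 ± 0.66 (adjusted p = 0.00708) and GRO1 3.95 ± 0.56 (adjusted p = 0.00889). CXCL5 had 2.07 (95% interval 0.89 to 3.25, adjusted p = 0.489) with rbCAPG and 2.75 (1.53 to 3.96, adjusted p = 0.0790) with rbPDI. CXCL8 had 4.14 (1.81 to 6.46, adjusted p = 0.489) and 4.41 (2.05 to 6.76, adjusted p = 0.181). The median log2 fold change of the 5 genes was 3.93 with rbCAPG and 3.95 with rbPDI, against -0.01 and 0.00 over all tested genes.

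Several calls in bESCs were lost on leaving out single libraries or animals. Where a call was lost without an animal, the log2 fold change ran from 2.34 (CXCL3, rbCAPG) to 4.90 (CXCL2, rbPDI). These fits held fewer libraries, and the cause of the losses was not tested. With the replicate number as a block, all 3 GRO genes kept the call with each protein (adjusted p = 0.000578 to 0.0213), and also by DESeq2. With rbCAPG, CXCL2 and GRO1 lost the call without bESC VC replicate 1 (adjusted p = 0.0855 for both) or replicate 3 (0.0956 for both), and CXCL3 lost it without bESC VC replicate 1 (0.0855), 2 (0.0614) or 3 (0.0956) or bESC rbCAPG replicate 3 (0.0512). With rbPDI, CXCL3 lost the call without bESC VC replicate 1 (0.0731), 2 (0.0504) or 3 (0.0942) or bESC rbPDI replicate 2 (0.0520) or 3 (0.0724), and CXCL5 gained it without bESC VC replicate 2 (adjusted p = 0.0295). On leaving out all 6 libraries of replicate 1, 2 or 3, the rbCAPG calls of CXCL3 (0.105, 0.367 and 0.533) and GRO1 (0.0824, 0.242 and 0.404) were lost each time, and that of CXCL2 without replicate 2 (0.274) or 3 (0.489). The rbPDI calls of CXCL3 (0.107, 0.262 and 0.462) and GRO1 (0.0524, 0.109 and 0.425) were lost in the same way, and that of CXCL2 without replicate 2 (0.101) or 3 (0.462). When only the 6 libraries compared were fitted, CXCL2 alone was still called with rbPDI (GRO1, adjusted p = 0.0918) and no gene with rbCAPG. With the replicate number as a block, CXCL5 and CXCL8 were called with rbPDI (adjusted p = 0.0116 and 0.0164), though not with rbCAPG (0.0767 and 0.0516). DESeq2 called both genes with both proteins (rbCAPG, adjusted p = 0.0219 and 0.0194). The study's own rbCAPG list was made with DESeq2, so its rbCAPG calls here are not independent evidence. MUC1 and OCLN summed to 0.351 to 0.578 CPM in bESCs with VC, 1.36 to 2.46 CPM with rbCAPG and 1.304 to 3.98 CPM with rbPDI, with OCLN called higher with rbPDI. CD14 and AIF1 summed to 4.35 to 18.3, 5.93 to 20.03 and 6.38 to 14.4 CPM, with AIF1 at 0 CPM in all 3 VC libraries and at or below 0.0820 CPM in the others. TEK and SELP summed to 116 to 214, 316 to 646 and 82.2 to 518 CPM, nearly all of it SELP, with TEK at or below 0.475 CPM. The part of bEEC RNA and of these other cells in the bESC changes was not tested. Identifiers of these markers too came from the study's lists of genes that changed with rbCAPG, with the same limit.

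Within an animal, replicate 3 had the largest fold for each gene in bESCs. With rbPDI, CXCL5 was 6.78-fold, 3.94-fold and 18.8-fold higher in replicates 1, 2 and 3, CXCL2 was 18.8-fold, 30.1-fold and 68.3-fold higher, and CXCL8 was 11.9-fold, 9.57-fold and 78.3-fold higher. In bEECs the largest folds of CXCL2, CXCL3, GRO1 and CXCL5 were instead those of replicate 1. There, CXCL2 was 3189-fold, 409-fold and 882-fold higher with rbPDI, each against a VC library with between 20 and 33.5 reads.

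By the interaction term, the log2 fold change with rbCAPG was larger in bEECs than in bESCs for CXCL2, CXCL3 and CXCL5. With rbPDI it was larger for these 3 genes and GRO1. The term compares ratios to VC and not CPM, and it called 0.0669% and 0.0837% of tested genes in that direction. The rbPDI differences in log2 fold change (bEEC minus bESC) were 6.16 ± 0.82 (SE) for CXCL5 (adjusted p = 0.00507), 5.72 ± 0.73 for CXCL3 (adjusted p = 0.00384), 5.42 ± 0.87 for CXCL2 (adjusted p = 0.0206) and 4.15 ± 0.74 for GRO1 (adjusted p = 0.0402). With rbCAPG, GRO1 was not called (3.66, 95% interval 2.11 to 5.22, adjusted p = 0.116). CXCL8 gave no call with rbCAPG (-0.79, -3.69 to 2.12) or with rbPDI (0.03, -2.87 to 2.92), and these intervals are wide enough to hold a large difference in either direction.

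The interaction calls of CXCL3 and CXCL5 with rbPDI were made under each of 18 alternative settings and single-library omissions. On leaving out all 6 libraries of an animal, CXCL5 lost the call each time (adjusted p = 0.168 to 0.305) and CXCL3 lost it without replicate 1 (0.305) or 2 (0.237). That of CXCL2 with rbPDI was lost without bEEC VC replicate 1 or 3, bESC VC replicate 1 or any 1 of the bESC rbPDI libraries (adjusted p = 0.0574 to 0.114), and that of GRO1 was lost on leaving out any 1 of 10 libraries, all but bEEC VC replicate 2 and bESC VC replicate 3 (0.0574 to 0.192). With rbCAPG, CXCL2 lost the call without any 1 of 11 libraries, all but bESC VC replicate 3 (0.0567 to 0.254), and also with DESeq2's size factors in edgeR (0.0557). CXCL3 lost it without replicate 1 or 3 of either bEEC group or replicate 1 or 2 of either bESC group (0.0593 to 0.0986). CXCL5 lost it without bEEC VC replicate 1 or 3, bEEC rbCAPG replicate 3, or bESC rbCAPG replicate 1 or 3 (0.0552 to 0.0986). GRO1 gained the call with rbCAPG without bESC VC replicate 3 (0.0392), by DESeq2 (0.000226) and with no filter (0.0152).

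After exposure, fewer of the genes were called different between the cell types. With rbCAPG, 1 of the 5 genes was called between bEECs and bESCs, CXCL5, lower in bEECs, where 18.3% of all tested genes were called in that direction. Its log2 difference (bEEC minus bESC) was -1.67 ± 0.55 (SE, adjusted p = 0.0200), and the call was lost without bEEC rbCAPG replicate 2 (adjusted p = 0.0863) and without all libraries of replicate 1 (0.0816) or 2 (0.125). CXCL2 differed by -0.84 (95% interval -2.02 to 0.35), CXCL3 by 0.37 (-0.64 to 1.38), GRO1 by -0.22 (-1.27 to 0.83) and CXCL8 by -1.74 (-3.84 to 0.37), none of them called. CXCL5 and CXCL8 were lower in every bEEC library than in every bESC library, as were 29.6% of tested genes. Without all libraries of replicate 1, CXCL2 (-1.74, adjusted p = 0.00520) and CXCL8 (-2.56, adjusted p = 0.0192) were called lower in bEECs. A p-value that misses the threshold does not show that the levels were alike.

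With rbPDI, CXCL5 was lower in bEECs by a log2 difference of -1.75 ± 0.55 (SE, adjusted p = 0.0160), and CXCL3 was higher there by 1.304 ± 0.48 (adjusted p = 0.0364), where 18.6% and 18.7% of tested genes were called lower and higher. Neither gene overlapped between the cell types, which held for 26.3% of tested genes in the direction of CXCL5 and 27.8% in that of CXCL3. The CXCL5 call was lost without bEEC rbPDI replicate 2 (-1.44, adjusted p = 0.0720) and without all libraries of replicate 2 (0.0923) or 3 (0.0786). The CXCL3 call was lost without bEEC rbPDI replicate 1 (adjusted p = 0.186) or any 1 of the bESC rbPDI libraries, replicate 1 (0.0933), 2 (0.0918) or 3 (0.0532), and without all libraries of replicate 1 (0.274) or 2 (0.130). The differences of CXCL2 (-0.27, 95% interval -1.45 to 0.91), GRO1 (0.27, -0.78 to 1.32) and CXCL8 (-0.93, -2.99 to 1.14) were not called. Without all libraries of replicate 1, CXCL2 (-1.32, adjusted p = 0.0189) and CXCL8 (-2.08, adjusted p = 0.0428) were called lower in bEECs.

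**Figure D3:**
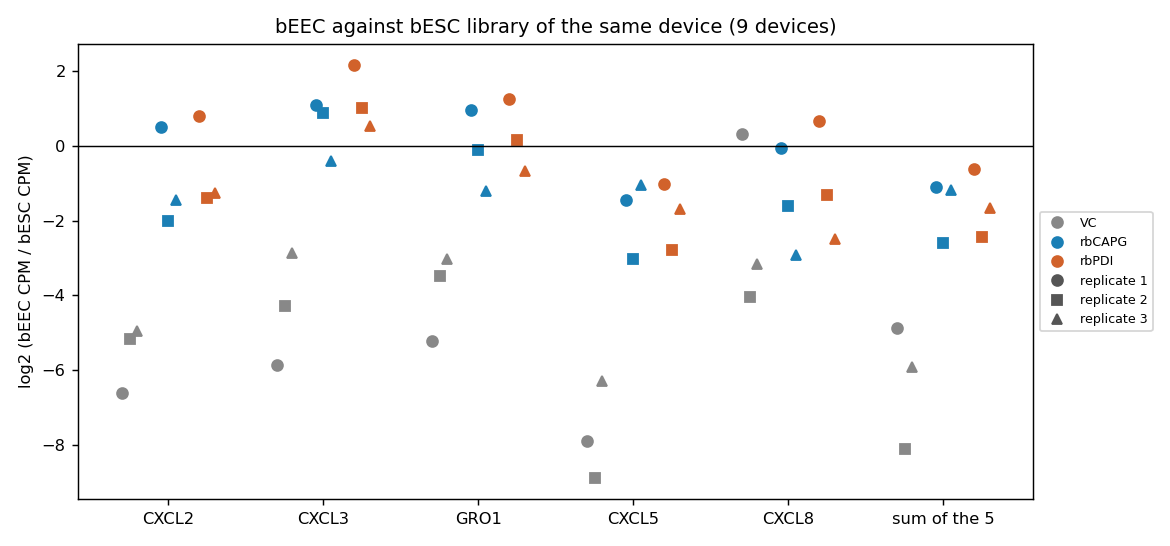
Log2 ratio of the bEEC CPM to the bESC CPM in the same device (y axis) for each chemokine gene and for the sum of the 5, with VC (grey), rbCAPG (blue) and rbPDI (orange) and a symbol for each replicate, where points above 0 mark more in bEECs. For CXCL3 the ratios move from between -5.87 and -2.86 with VC to between 0.51 and 2.16 with rbPDI, and the sum stays below 0 in all 9 devices.

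The mean levels of all 5 genes began in the same order, with bEEC VC below bESC VC below the 4 exposed groups. CXCL5 means (n = 3) were 19.6 ± 4.99 (SD) in bEEC VC, 4740.2 ± 3459 in bESC VC, 6283 ± 3371 in bEEC rbCAPG, 9433 ± 3974 in bEEC rbPDI, 19928 ± 1730.3 in bESC rbCAPG and 31806 ± 6187 CPM in bESC rbPDI. Here bESC VC, bEEC rbCAPG and bEEC rbPDI overlapped, and the exposed bESC groups stood above all of them. For CXCL2 the exposed groups had means of 537 ± 353 (bEEC rbCAPG), 958 ± 251 (bESC rbCAPG), 999 ± 889 (bEEC rbPDI) and 1204 ± 51.4 CPM (bESC rbPDI), and each neighbouring pair in this order overlapped. CXCL3 ran the other way, from 308 ± 60.1 (bESC rbPDI) and 367 ± 218 (bESC rbCAPG) to 475 ± 107 (bEEC rbCAPG) and 759.9 ± 349 CPM (bEEC rbPDI). The means of GRO1 lay within 394 to 559 CPM in the exposed groups, and those of CXCL8 within 433 to 1740.2 CPM, with neighbours in order overlapping for CXCL3, GRO1 and CXCL8 too.

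No difference between the proteins was called for these genes. Comparing rbPDI with rbCAPG, 0 of the 5 genes were called in bEECs or bESCs by edgeR, as were 0 of all tested genes (0% in each cell type), although 103 genes in bEECs and 319 in bESCs had p below 0.05 before adjustment, and also 0 calls by DESeq2. In bEECs the 5 means were all higher with rbPDI, by log2 differences from 0.50 (GRO1, 95% interval -0.55 to 1.56) to 1.08 (CXCL8, -0.99 to 3.15), and the groups overlapped for each gene. Within an animal, rbPDI stood above rbCAPG in all 3 animals for all 5 genes in bEECs and for CXCL2, CXCL5 and CXCL8 in bESCs. The share of all tested genes with such an order was not counted, and the 5 genes moved together, so they are not 5 separate observations. With the replicate number as a block 0 genes were called in either cell type. In bESCs the differences ran from -0.25 (CXCL3, -1.26 to 0.75) to 0.67 (CXCL5, -0.47 to 1.82). CXCL2 and CXCL5 did not overlap between the proteins there, higher with rbPDI, which held for 1.83% of tested genes.

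The family took a larger share of all RNA reads in exposed than in VC libraries of each cell type. Its summed counts were 0.00294% to 0.0157% of the library in bEEC VC, 0.364% to 1.05% with rbCAPG and 0.616% to 1.46% with rbPDI. In bESCs they were 0.220% to 0.996% with VC, 2.22% to 2.96% with rbCAPG and 3.17% to 4.18% with rbPDI, of which CXCL5 alone was up to 3.65% of a library. The groups of exposed and VC libraries did not overlap in either cell type, and no test was made of this sum. In CPM the sums were 66.5 ± 58.4 (SD, n = 3), 8122 ± 3667 and 12667 ± 5577 in bEECs with VC, rbCAPG and rbPDI, and 4929.8 ± 3519, 23158 ± 2353 and 35523 ± 7197 in bESCs.

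Set against the pair of libraries of a device, with each library given the same weight, bEECs supplied 0.361% to 3.31% of the summed CPM with VC, 14.0% to 31.6% with rbCAPG and 15.6% to 39.3% with rbPDI. This is a share of library-scaled reads and not of the device's RNA, since cell numbers and RNA yield differ between the sides. By gene, the bEEC share with rbPDI had a median of 66.8% for CXCL3 (58.8% to 81.7%), 52.5% for GRO1 (38.6% to 70.3%), 29.5% for CXCL2 (27.5% to 63.3%), 28.5% for CXCL8 (15.1% to 61.4%) and 23.5% for CXCL5 (12.6% to 32.9%). With VC the medians were 4.85%, 8.25%, 2.71%, 10.1% and 0.419% for the same genes.

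CXCL5 made up most of the family's reads in all libraries but 1, bEEC VC replicate 1, where CXCL8 took 86.6% and CXCL5 11.5%. Gene lengths were not used, so these are shares of reads and not of transcripts, to be compared for 1 gene between groups. In bESCs the CXCL5 share was 95.6% ± 1.84 (SD, n = 3) with VC, 86.3% ± 6.78 with rbCAPG and 89.6% ± 2.23 with rbPDI. In bEECs it was 47.7% ± 32.6, 75.1% ± 9.53 and 74.8% ± 9.06. The GRO genes together went from 2.53% ± 1.29 of the family's reads in bESC VC to 7.61% ± 1.93 with rbCAPG and 5.64% ± 0.668 with rbPDI, and each exposed bESC library was above each VC library. In exposed bEECs they took more, 19.4% ± 7.999 and 18.5% ± 6.50.

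**Figure D4:**
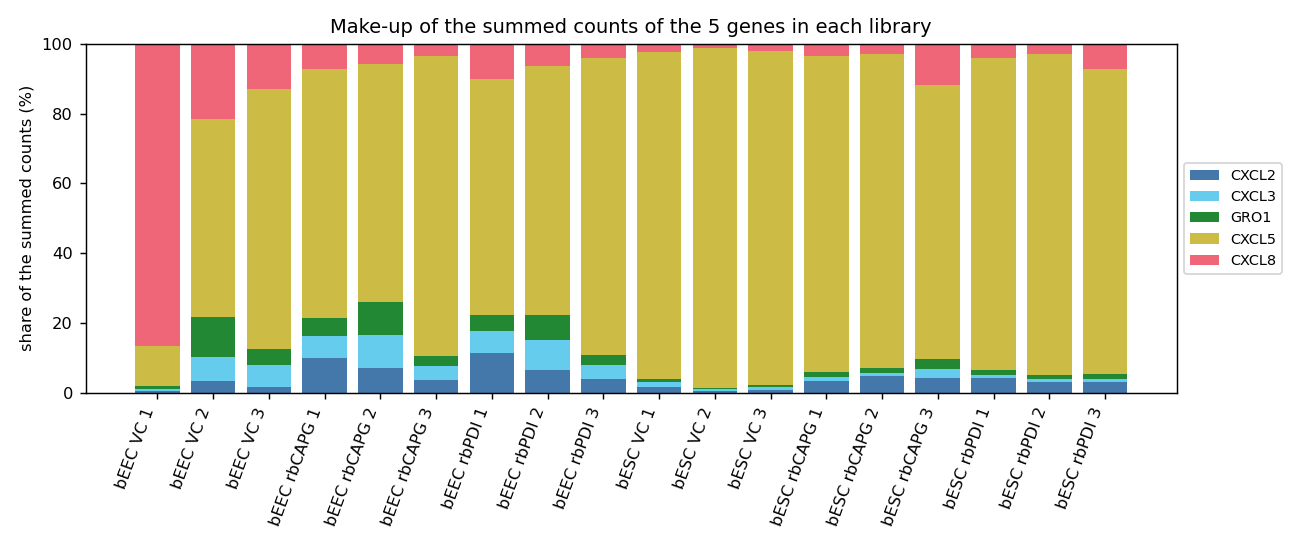
Share of each gene in the summed counts of the 5 chemokines (y axis, percent, bars from 0 to 100) in each of the 18 libraries. CXCL5 fills most of each bar but that of bEEC VC replicate 1, where CXCL8 fills 86.6%, and the part of the GRO genes (CXCL2, CXCL3, GRO1) is larger in exposed bEECs than in exposed bESCs.

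Part of the counts of these paralogs were fractions of reads. The counting divided reads with more than 1 match or more than 1 overlapping gene, and of 18 values 17 were not whole for GRO1, 16 for CXCL3, 15 for CXCL2, 13 for CXCL5 and 11 for CXCL8. Over all tested genes, 4.48% had at least as many fractional values as GRO1, 9.80% as many as CXCL2 and 27.0% as many as CXCL8. Most fractions of the GRO genes and CXCL5 were other than 0.5, whereas 8 of the 11 of CXCL8 were 0.5. The counts do not show which genes shared a read, so the levels of the single GRO genes are uncertain to the extent that reads were divided among them.

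Within the family, levels moved together over the libraries. Pearson's r of log2 CPM was 0.988 for CXCL3 with GRO1, 0.985 for CXCL2 with GRO1 and at the lowest 0.838 for CXCL5 with CXCL8 over the 18 libraries, which share animals, devices and treatment groups. Among the genes with a symbol, ZC3H12A, a ribonuclease that degrades cytokine mRNA, was the nearest to CXCL2 (r = 0.963) and GRO1 (r = 0.953), and NFKBIA, the inhibitor that holds NF-kB in the cytoplasm, was the nearest to CXCL3 (r = 0.959). The 3 genes nearest to CXCL5 had no symbol here (r = 0.959, 0.956 and 0.941).

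Of the NF-kB genes, 9 of 11 listed had an identifier, all taken from the study's lists of genes that changed with rbCAPG. Their counts are not independent evidence for rbCAPG, nor for rbPDI, which was compared with the same VC libraries. All 9 were called higher in bEECs with each protein, and 6 of 9 were called higher in bESCs with each, against 0.513% (rbCAPG) and 0.77% (rbPDI) of tested genes in bEECs and 0.0948% and 0.173% in bESCs. NFKBIA stood at 30.2 ± 11.6 CPM (SD, n = 3) in bEEC VC, 299 ± 31.0 with rbCAPG and 338 ± 58.3 with rbPDI, and in bESCs at 53.1 ± 10.8, 179 ± 12.7 and 186 ± 18.03 CPM. TNFAIP3, an enzyme that ends NF-kB signalling, rose in bEECs by log2 fold changes of 2.26 and 2.33 (adjusted p = 0.00800 and 0.00449) and in bESCs by 2.61 and 2.57 (adjusted p = 0.0128 and 0.0109). NFKB1, NFKB2 and MAP3K8 were the 3 not called in bESCs, with log2 fold changes from 0.69 to 1.70. No interaction was called among these 9 genes.

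Of 15 partner cytokines listed, 6 had an identifier, and CXCL1 and CXCL6 in that list are other names of GRO1 and CXCL5. These identifiers come from the same lists of the study, with the same limit. With rbPDI, IL6, CCL20, CCL5 and CX3CL1, 4 of the 6, were called higher in each cell type, and with rbCAPG 2 of the 6, CCL5 and CX3CL1 in bEECs and IL6 and CCL20 in bESCs. Of all tested genes, 0.77% in bEECs and 0.173% in bESCs were called higher with rbPDI, and 0.513% and 0.0948% with rbCAPG. IL6, a broadly acting inflammatory cytokine, stood at 204 ± 85.3 CPM in bEEC VC and 1918 ± 1347 with rbPDI (adjusted p = 0.0268), and at 110.3 ± 83.5 CPM in bESC VC and 2004 ± 631 with rbPDI (adjusted p = 0.0164). CCL20, which attracts CCR6-bearing lymphocytes and dendritic cells, rose in bESCs with rbCAPG by a log2 fold change of 7.95 ± 1.35 (SE, adjusted p = 0.0354). With rbPDI it rose there by 8.56 ± 1.38 (adjusted p = 0.0142). Its VC level was near the floor, at 0.0897 to 2.82 CPM in bEECs and 0 to 0.846 CPM in bESCs. The difference between the cell types was not called (adjusted p = 0.169), which does not show that they were alike. CSF3, the growth factor of neutrophils, was listed at 0 to 0.121 CPM in VC libraries of both cell types, at 2.80 to 9.25 CPM in exposed bEECs and at 0.323 to 9.20 CPM in exposed bESCs, and was not called. The receptors CXCR1 and CXCR2 were not analysed here.

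**Figure D5:**
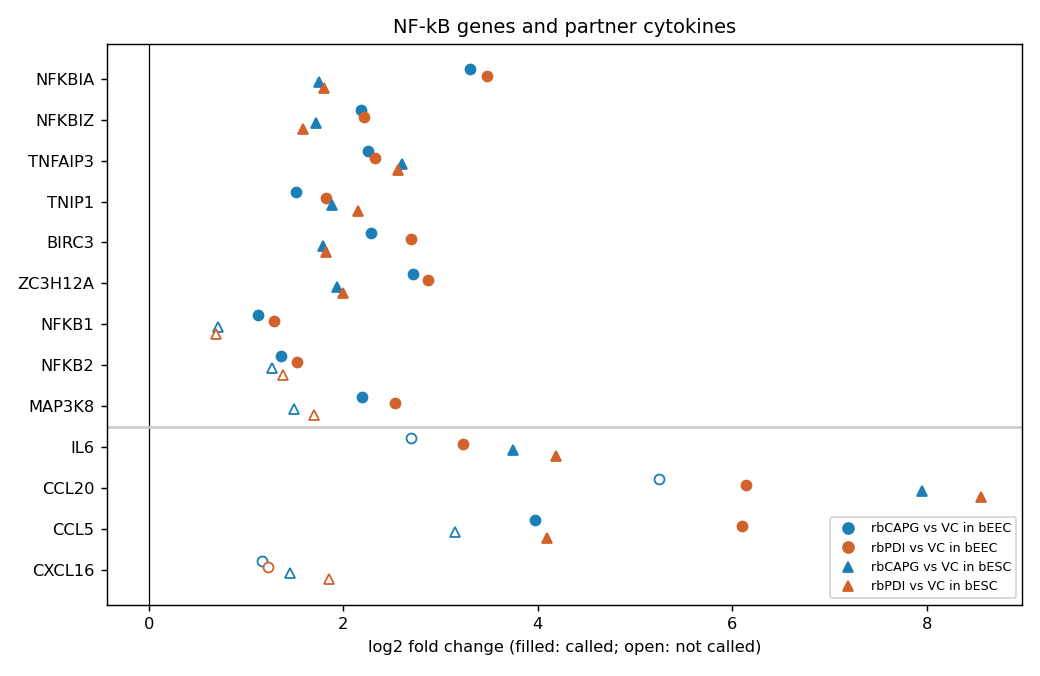
Log2 fold change against VC (x axis) of the 9 NF-kB genes (above the line) and 4 partner cytokines (below it), for rbCAPG (blue) and rbPDI (orange) in bEECs (circles) and bESCs (triangles), filled where called. CSF3 and CX3CL1 are left out because their VC libraries held almost no reads, and all points lie above 0, with those of CCL20 reaching 8.56.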

How the data were processed

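RNA from 18 libraries was sequenced. The authors used Trimmomatic for trimming, STAR for alignment to ARS-UCD1.3 and featureCounts for counting per Ensembl gene, with reads of several matches or overlapping genes divided, so the deposited values are estimated counts (23.3% of them not whole). No strand option is stated. Samples were grouped by their labels, with 0 unused columns. Values were rounded, filtered by filterByExpr (17931 genes) and TMM-normalised. All 18 libraries were fitted together with edgeR 4.0.16 (quasi-likelihood, R 4.3.3), with a mean per group (12 residual degrees of freedom), tested on simulated data. The standard error is the log2 fold change divided by the square root of F.

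The 5 genes were named by the request and lists by fixed rules, and the members and lists were chosen with earlier results of these data known. For each gene the 3 most alike genes by Pearson's r were to be named, those without a symbol by r only, and the gene nearest to CXCL8 is not reported here. Symbols and identifiers came from the study's supplementary lists, so marker lists were covered below 80% and stand as values only. Neighbouring genes came from RefSeq (ARS-UCD2.0), with no coordinates used across assemblies.

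Replicate numbers mark animals: deviations from group means correlated at 0.481 on average within bEECs, 0.396 within bESCs and 0.175 across cell types for the same number. The lowest same-number values were 0.311, 0.129 and 0.0518. For different numbers the means were -0.239, -0.199 and -0.0869, and the highest values -0.0503, 0.258 and 0.155. The ranges thus overlapped within bESCs and across cell types. The alternatives were the replicate block, DESeq2 1.42.0, its size factors in edgeR, no filter (29859 genes), at least 10 counts in 9 libraries (15712 genes), unrounded values, fits to the 6 libraries compared and single libraries left out. For a single value, 0.1 is the smallest two-sided p that exact permutation of 3 against 3 libraries allows. The precision depends on the spread between the 3 libraries of a group as well as on total counts per library (10072851 to 44253149).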

Additional observations from a re-analysis of the deposited data

Results flagged for a closer look

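The log2 fold change with a protein differed between the cell types for 3 genes with rbCAPG and 4 with rbPDI. Each was larger in bEECs than in bESCs by edgeR's interaction term, a test of the difference itself. The term compares ratios to VC and not CPM. By mean CPM, CXCL2 and CXCL5 rose more in bESCs with each protein. CXCL3 with each protein and GRO1 with rbPDI rose more in bEECs. Mean CXCL5 went from 19.6 CPM (VC) to 6283 (rbCAPG) and 9433 (rbPDI) in bEECs, and from 4740 to 19928 and 31806 in bESCs. With rbCAPG the difference in log2 fold change was 4.85 for CXCL2 (adjusted p = 0.0490), 4.79 for CXCL3 (adjusted p = 0.0292) and 6.25 for CXCL5 (adjusted p = 0.0173). With rbPDI it was 5.42 for CXCL2, 5.72 for CXCL3, 4.15 for GRO1 and 6.16 for CXCL5. The VC libraries enter both proteins' terms, so these are not separate observations, and the bEEC VC libraries held between 20 and 840 reads of these genes.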

How the results depend on the processing

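No called difference changed sign under the alternatives, but 9 differences that were not called did under settings or single-library omissions. The CXCL8 interaction ran from -1.32 to 2.13 with rbCAPG (0.87 with the replicate block) and from -0.89 to 2.96 with rbPDI (1.31 with the block). Between cell types CXCL2 with rbPDI ran from -1.31 to 0.08, and GRO1 from -0.52 to 0.23 with rbCAPG and -0.09 to 0.52 with rbPDI. Between the proteins CXCL2 in bEECs ran from -0.15 to 1.57, and in bESCs CXCL3 from -0.55 to 0.32, GRO1 from -0.29 to 0.45 and CXCL8 from -0.39 to 1.27. Of the gene-by-gene results over all alternatives, 797 stayed on their side of the threshold, 107 lost a call and 26 gained one. In bESCs the 3 members called with rbCAPG became 0 when only the 6 libraries compared were fitted and 5 with DESeq2. The study made its rbCAPG list with DESeq2, so this 5 was largely fixed in advance. With rbPDI the 3 became 1 with only those 6 libraries, and 5 with DESeq2, with no filter on low counts or with the replicate block. A fit to 6 libraries has fewer residual degrees of freedom, and the cause of the other shifts was not tested. The replicate block added CXCL8 in bEECs with both proteins and CXCL5 and CXCL8 in bESCs with rbPDI, and changed no other call of a member. Over all genes, the block moved the calls with rbCAPG and rbPDI from 92 to 392 and 145 to 531 in bEECs and from 17 to 86 and 32 to 189 in bESCs, and DESeq2 gave 270, 381, 71 and 175. Leaving out 1 library, or all 6 of an animal (chosen after seeing the data), gave 4 to 5 members called in bEECs with either protein, 0 to 3 in bESCs with either, 4 to 5 between cell types with VC, 0 to 2 with rbCAPG and 0 to 3 with rbPDI, 0 for rbPDI against rbCAPG, and 0 to 4 in each interaction. Without an animal the interaction kept a call only for CXCL3 with rbPDI, on leaving out replicate 3. Between 20 and 112 reads lay behind each bEEC VC value of the GRO genes, which limits the precision of their folds.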

Other observations

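Genes that temper interleukin 1 signalling differed in where they were expressed. IL1RN, a secreted blocker of the interleukin 1 receptor, stood at 38.6 ± 4.43 CPM (SD, n = 3) in bEEC VC and 0.731 ± 0.366 in bESC VC, a log2 difference of 5.78 ± 0.52 (SE, adjusted p = 2.18e-07), the opposite direction to the chemokines. With rbCAPG it stood at 110.1 ± 25.7 CPM in bEECs and with rbPDI at 137 ± 53.8 CPM, neither change called (adjusted p = 0.171 and 0.0563). IL37, an anti-inflammatory member of the interleukin 1 family, was at 0 to 0.495 CPM in all VC libraries and reached 14.1 CPM in bESC rbPDI replicate 1, the library with the smallest total, against 2.46 and 2.59 CPM in the other replicates. Of the 3 inhibitors (with IL1R2), 0 were called with either protein in either cell type.

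CXCR4, the receptor of CXCL12, and SELP, an adhesion molecule that captures leukocytes on vessel walls, were unevenly placed. CXCR4 was higher in bEECs with VC (log2 difference 2.66 ± 0.58, adjusted p = 0.00132) and SELP lower (-5.92 ± 0.77, adjusted p = 1.07e-05). Neither was called with a protein, nor was CCRL2, the third receptor gene with an identifier.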
